A study of Mus musculus with 9 samples.

Results

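The Hedgehog pathway genes examined here were Gli1, Gli2, Gli3, Ptch1, Smo, Hhip, Boc, Gas1 and Cdon, taken by gene symbol from the deposited count table. They are 9 of its 54532 genes, and 8 of them were among the 14004 genes with enough reads to be tested. Only Hhip was not tested. The cells were ST2, a wild-type mouse stromal line derived from bone marrow that the labels class as mesenchymal stem cells. They were kept for 72 h with vehicle, with recombinant human Wnt3a (rhWnt3a, 50 ng/ml), or with rhWnt3a and OSMI (20 µM), a small-molecule inhibitor of O-GlcNAc transferase (OGT), and 3 libraries were made per group. The third group is called rhWnt3a + OSMI here after its sample titles and the study's account of its results, whereas its treatment label and the study's methods name OSMI alone and give no dose of rhWnt3a for it. The Wnt target Axin2 stood at 13.4 ± 3.49 CPM in this group, beside 19.1 ± 2.39 with rhWnt3a and 0.567 ± 0.324 in vehicle (SD, n = 3). No group is titled as OSMI without rhWnt3a, all groups come from a single cell line, and nothing in the labels says whether replicates were separate cultures, so the p-values measure only the spread between these libraries.

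Hedgehog ligands act by binding Ptch1, a receptor that otherwise holds the membrane protein Smo inactive. Once released, Smo acts at the primary cilium to change the processing of the Gli transcription factors, of which Gli2 is mainly an activator and Gli3 mainly a repressor, while Gli1 is an activator that is itself a target gene. Gas1, Boc and Cdon are coreceptors that help present the ligand to Ptch1, and Hhip binds the ligand and withholds it. Because Gli1, Ptch1 and Hhip are transcribed in response to the pathway, they are widely used as its readouts. In the growing skeleton, Indian hedgehog from cartilage acts on neighbouring progenitors during the formation of osteoblasts.

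The libraries held 16135898 to 17583945 counted reads, so that a floor of 3 reads lies at 0.170 to 0.191 CPM (read counts relative to library totals scaled by TMM). Vehicle replicate 3, rhWnt3a replicate 2 and rhWnt3a + OSMI replicate 3 stood apart from the other 2 libraries of their groups, with mean squared log2 differences of 0.373 to 0.454 against 0.111 to 0.119 between those 2. An axis that held 54.8% of the variance within groups put vehicle replicates 1 and 2, rhWnt3a replicates 1 and 3 and rhWnt3a + OSMI replicate 3 on 1 side, and the other 4 libraries on the opposite side. The axis was computed after subtracting the mean of each group, so a side is the direction in which a library deviates from its own group. It does not show that libraries of different groups on the same side were alike. Differences within a side are given below as values without a test. Only rhWnt3a against vehicle on the first side has 2 libraries in both groups, and all others set a single library against 1 or 2. The libraries that stood apart did so in the Hedgehog genes too. Vehicle replicate 3 was the lowest of its group for 8 of the 8 tested members, rhWnt3a replicate 2 was the lowest for 7 (not for Gas1), and rhWnt3a + OSMI replicate 3 was the highest for 7 (not for Gli1). Of the 9 stromal markers, Thy1 had at most 4 reads in any library and the other 8 were tested. Of these 8, 3, 1 and 4 were called in the 3 comparisons described below. These are 37.5%, 12.5% and 50%, beside 8.78%, 4.74% and 14.2% of all tested genes. Cxcl12 and Vcam1 fell with rhWnt3a and Prrx1 rose. With OSMI, Vcam1 fell relative to rhWnt3a (log2 fold change −0.96). Against vehicle, rhWnt3a + OSMI gave log2 fold changes of −1.89 for Vcam1, −1.89 for Cxcl12, −1.31 for the collagen gene Col1a1 and 0.82 for Prrx1. The part of these markers in the results on the Hedgehog genes was not tested. None of the 8 markers of blood, endothelial, epithelial or fat cells passed the filter, and the highest count among them was 7. The Wnt target Axin2 rose with rhWnt3a by 5.06 on the log2 scale, with Lef1 (2.28) and Nkd2 (1.31).

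The stretches of DNA upstream of 4 members are shown because these members include the receptor Ptch1, which had the lowest adjusted p among members for OSMI against rhWnt3a, the most abundant coreceptor and the Gli2 and Gli3 pair. Each is the 250 bases before the start of the RefSeq transcript in GRCm38.p6, printed in the direction of transcription. Capitals mark a GC box (GGGCGG) or a CCAAT box (CCAAT) on either strand. The windows lie at chr13:63565736-63565985 on the minus strand for Ptch1, chr13:60177536-60177785 on the minus strand for Gas1, chr1:119053620-119053869 on the minus strand for Gli2 and chr13:15463473-15463722 on the plus strand for Gli3. None of them shares a base with an exon of its own gene in GENCODE M21. Those of Ptch1 and Gli3 fall inside the span of the gene, that of Gli2 abuts the gene, and that of Gas1 ends 170 bases before it. The whole Gas1 window lies in an exon of the antisense gene Gm48488, and the whole Gli3 window in an exon of Gm6556.
Ptch1: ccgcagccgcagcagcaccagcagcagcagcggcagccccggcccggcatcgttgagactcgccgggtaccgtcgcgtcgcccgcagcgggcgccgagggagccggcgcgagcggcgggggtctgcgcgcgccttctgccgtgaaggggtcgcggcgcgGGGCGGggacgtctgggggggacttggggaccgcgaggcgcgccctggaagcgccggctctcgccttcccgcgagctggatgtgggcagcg
Gas1: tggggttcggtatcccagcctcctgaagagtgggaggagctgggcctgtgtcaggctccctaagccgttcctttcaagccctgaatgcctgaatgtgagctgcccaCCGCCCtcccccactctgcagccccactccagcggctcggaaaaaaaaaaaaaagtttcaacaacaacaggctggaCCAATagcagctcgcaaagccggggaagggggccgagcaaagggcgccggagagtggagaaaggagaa
Gli2: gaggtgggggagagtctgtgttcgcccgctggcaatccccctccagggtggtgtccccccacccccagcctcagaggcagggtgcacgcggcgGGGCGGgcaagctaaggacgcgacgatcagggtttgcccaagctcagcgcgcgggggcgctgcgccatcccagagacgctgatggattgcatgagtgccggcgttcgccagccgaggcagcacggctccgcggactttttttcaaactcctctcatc
Gli3: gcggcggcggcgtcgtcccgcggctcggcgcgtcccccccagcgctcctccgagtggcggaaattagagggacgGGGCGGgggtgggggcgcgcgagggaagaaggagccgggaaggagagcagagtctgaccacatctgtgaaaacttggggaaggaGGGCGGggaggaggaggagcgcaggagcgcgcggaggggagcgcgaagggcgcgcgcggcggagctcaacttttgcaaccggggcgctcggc

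RefSeq windows were matched for 7 of the 9 members, with Boc and Gli1 unmatched. The GLI motif GACCACCCA was found in 0 of the 7 windows, on either strand, and in 0.225% of the 32851 windows of all genes. The TCF/LEF motif, searched as CTTTG followed by AA, AT, TA or TT, was likewise in 0 of the 7, against 14.8% of all windows. A GC box was in 5 of the 7 (Ptch1, Gas1, Hhip, Gli2 and Gli3), against 32.7% of all windows, and a CCAAT box in Gas1 alone, against 33.8%. The TATA box motif TATAAA was in 0 of the 7 and in 12.4% of all windows. No letters of the motifs searched overlap within the printed windows. The GC content of the printed windows ran from 58.8% in Gas1 to 78.4% in Ptch1.

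Levels per gene length were compared from the deposited FPKM (fragments scaled to gene length and library total). In vehicle, Gas1 stood highest at 467 ± 87.4 FPKM (SD, n = 3), followed by Smo at 52.6 ± 9.67, Boc at 33.9 ± 8.45, Cdon at 6.31 ± 1.72 and Gli3 at 2.52 ± 0.626. Ptch1 (1.48 ± 0.323) and Gli2 (1.39 ± 0.467) overlapped, Gli1 lay at 0.435 ± 0.131, and Hhip was at 0. The cells thus held RNA of the coreceptors and of Smo at higher levels per length than that of the receptor Ptch1 or of any Gli factor. With rhWnt3a, Boc (11.2 ± 2.23 FPKM) was still above Cdon (9.75 ± 3.08) within each library, at Cdon to Boc ratios of 0.721 to 0.932. The ranges of the 2 genes overlapped only between different libraries. With rhWnt3a + OSMI, Boc (16.6 ± 5.36) stood clear of Cdon (4.92 ± 1.60), and Ptch1 (2.46 ± 0.239) stood clear of Gli2 (0.610 ± 0.255). Cdon was above Gli3 (4.49 ± 1.51) within each library, although their ranges overlapped between libraries.

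**Figure D1:**
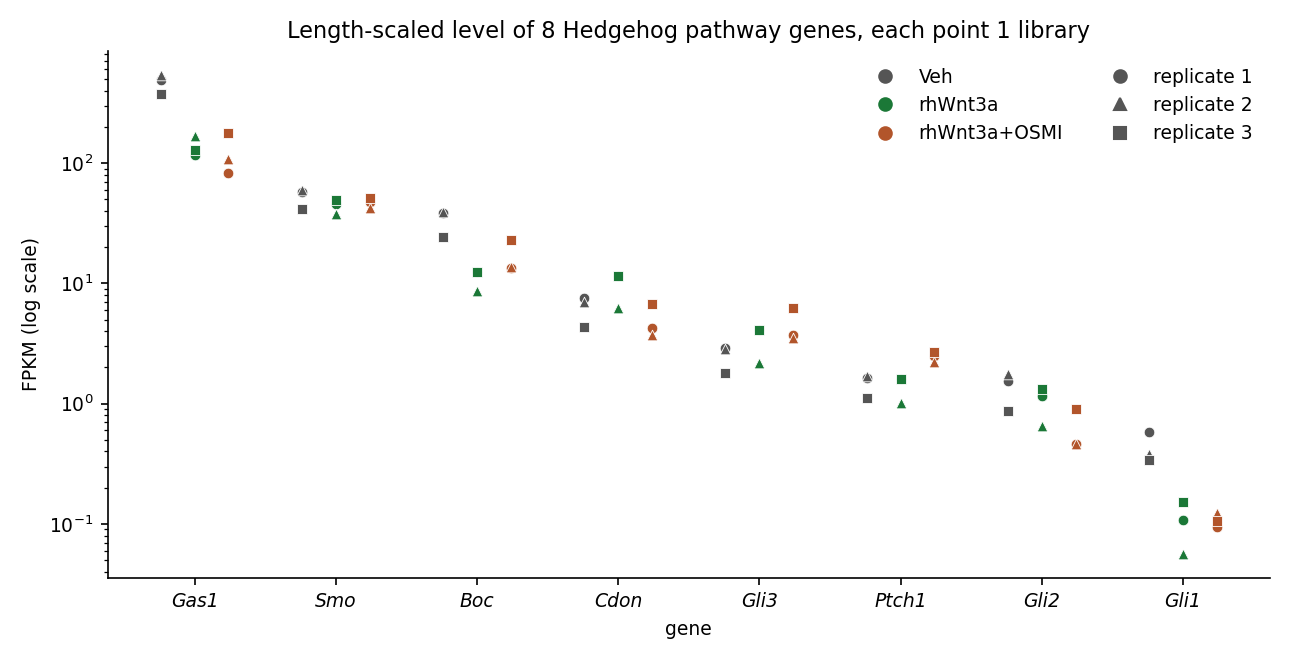
Deposited FPKM (log axis) of the 8 tested Hedgehog pathway genes in each of the 9 libraries, with color for the group and marker shape for the replicate number. Gas1 averaged 467 FPKM in vehicle and 139 with rhWnt3a, while Gli1 averaged 0.435 and 0.105.

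The first comparison, of rhWnt3a with vehicle, shows what Wnt stimulation did to these genes. The coreceptors Gas1 and Boc and the target gene Gli1 fell, to 0.299, 0.334 and 0.246 of their vehicle levels. Ptch1, Smo, Cdon, Gli2 and Gli3 did not pass the test. Called genes are those with a log2 fold change beyond 0.5 and a Benjamini-Hochberg adjusted p under 0.05 over all tested genes (edgeR quasi-likelihood test). The 3 called members of 8 tested, 0 up and 3 down, stand beside 8.78% of all tested genes called, 2.92% up and 5.86% down. The libraries of the groups did not overlap for the same 3 members, against 26.4% of all tested genes, and unadjusted p called the same 3, against 15.4%. Gli1 passed the filter on low counts only through its vehicle libraries, the group where it was high, so its place in this count supports nothing. With at least 10 counts required in every library, Gli1 was not tested and Boc and Gas1 were called, 2 members, beside 976 of 12005 genes. In bulk RNA, fewer cells of a type and less RNA per cell cannot be told apart.

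The second comparison, of rhWnt3a + OSMI with rhWnt3a alone, shows what the OGT inhibitor did on top of rhWnt3a. Ptch1 and Boc were higher in every rhWnt3a + OSMI library than in any rhWnt3a library, but no member was called (0 of 8, against 4.74% of all tested genes, 1.69% up and 3.05% down). By unadjusted p the same thresholds called Ptch1 and Cdon, 2 of 8 members against 16.2% of all tested genes, and the DESeq2 Wald test called the same 2. Groups that did not overlap were seen for 2 members, Ptch1 and Boc, against 33.7% of all tested genes. In the third comparison, of rhWnt3a + OSMI with vehicle, Ptch1 rose and Boc, Gas1 and Gli1 fell. These are 4 of 8, 1 up and 3 down, against 14.2% of all tested genes called, 4.84% up and 9.34% down. With at least 10 counts in every library Boc and Gas1 stayed called, Ptch1 was not called and Gli1 was not tested. In the main fit of this comparison 5 members did not overlap, Gli3 being the additional one, against 38.8% of all tested genes. Unadjusted p called 6, with Gli2 and Gli3 added, against 22.8%. Gli1 passed the filter only through vehicle here too, so its place in these counts supports nothing. The 3 comparisons share their libraries and are not independent of each other.

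**Figure D2:**
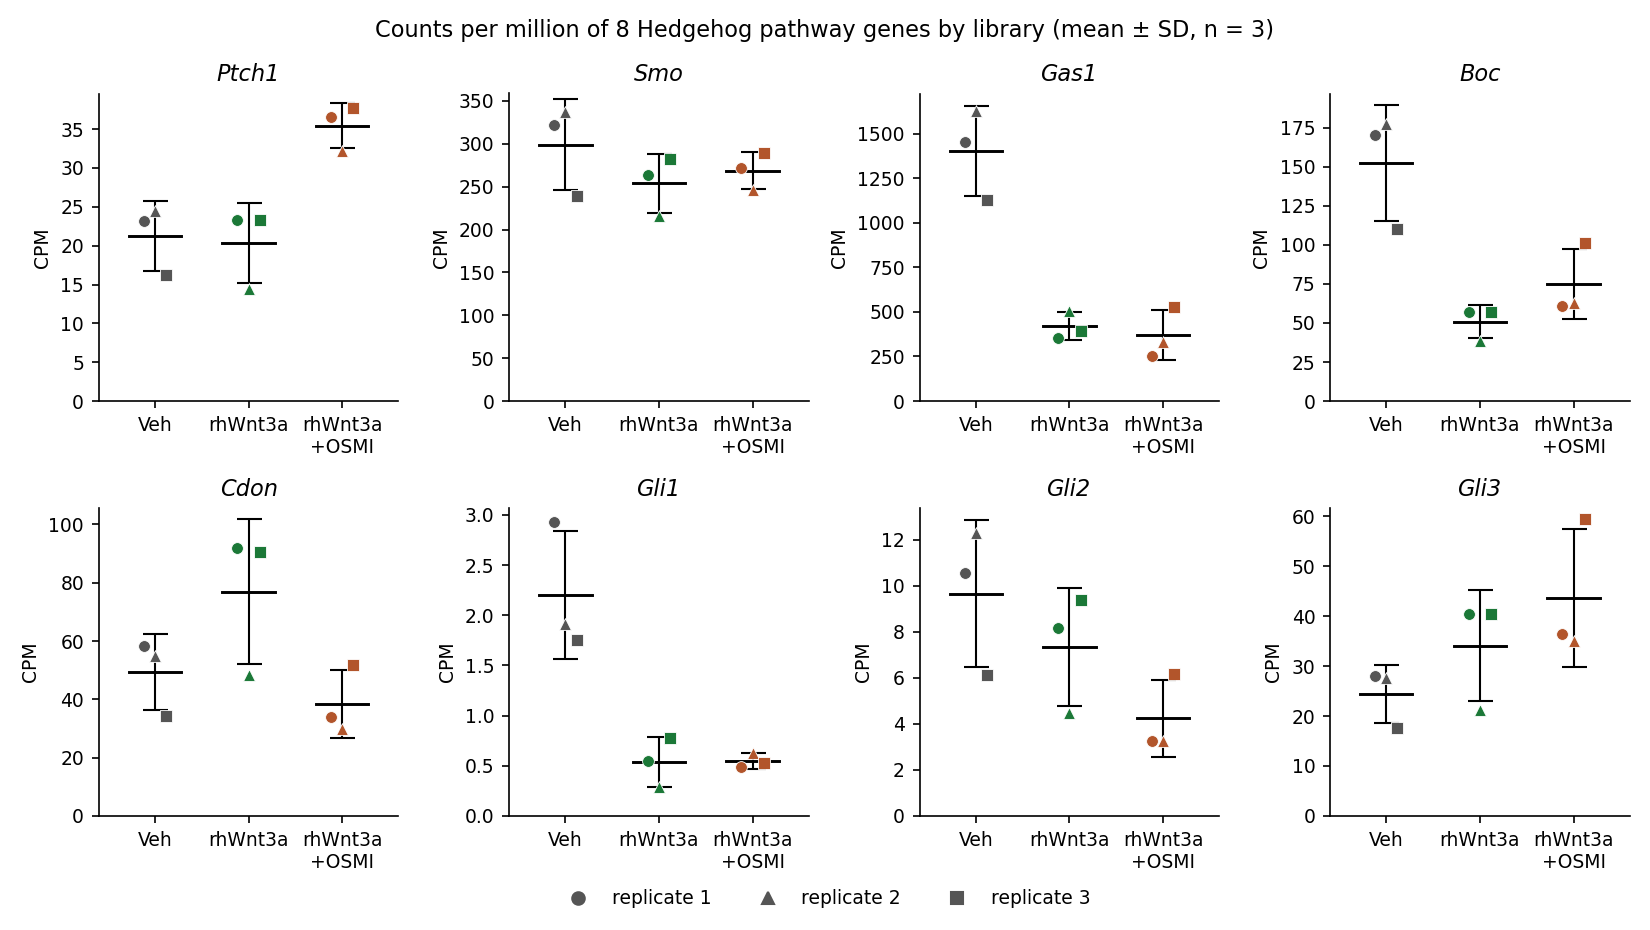
CPM of the 8 tested members in each library (points, shape for the replicate number) with the mean (horizontal line) and SD (error bar) of the 3 libraries per group; each panel has its own axis from 0. Gas1, Boc and Gli1 lay lower in all 6 libraries with rhWnt3a than in the vehicle libraries, and Ptch1 was highest in the 3 libraries with OSMI.

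Ptch1 (ENSMUSG00000021466, chr13:63508328-63573598 on the minus strand), the receptor and a target gene, had 23.1, 24.5 and 16.2 CPM in vehicle replicates 1 to 3, 23.4, 14.4 and 23.3 CPM with rhWnt3a, and 36.5, 32.1 and 37.7 CPM with rhWnt3a + OSMI. The vehicle and rhWnt3a libraries overlapped throughout, and all 3 libraries with OSMI lay above the other 6. The log2 fold change was −0.06 for rhWnt3a against vehicle, with a 95% interval of −0.55 to 0.43 (adjusted p = 0.927). For rhWnt3a + OSMI it was 0.80 ± 0.219 (SE) against rhWnt3a (adjusted p = 0.0678), which missed the threshold, and 0.74 ± 0.218 against vehicle (adjusted p = 0.0478). The call against vehicle was kept in 7 of 18 alternatives. Unadjusted p is among the 18 here and below, and by it a call cannot be lost. It was lost with DESeq2 size factors (adjusted p = 0.0521), at least 10 counts in every library (0.0533) or the replicate block (0.101), and without the 3 libraries that stood apart, where the log2 fold change was 0.49. It was also lost without vehicle replicate 1 (adjusted p = 0.0892), replicate 2 (0.0600) or replicate 3 (0.118), without rhWnt3a replicate 3 (0.0646), and without rhWnt3a + OSMI replicate 1 (0.105), replicate 2 (0.0687) or replicate 3 (0.0919). Within the 2 sides of the axis Ptch1 was 0.69 and 1.25 higher with OSMI than with rhWnt3a on the log2 scale. A call against rhWnt3a was made in 6 of 18 alternatives: by DESeq2 (adjusted p = 0.0148), with no filter on low counts (0.00606), by unadjusted p (0.00445), without vehicle replicate 3 (adjusted p = 0.0468), without the 3 libraries that stood apart (0.000295) and with the side of the axis as a covariate (0.000355). Without those 3 libraries all rhWnt3a + OSMI libraries are on 1 side of the axis and all others on the opposite side, so side and OSMI cannot be told apart there. Those 3 libraries were also picked because they stood apart in these same data, which narrows the spread within groups. The small adjusted p of that fit therefore adds no support.

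Smo (ENSMUSG00000001761, chr6:29735503-29761365 on the plus strand), the signal transducer downstream of Ptch1, had 322, 337 and 239 CPM in vehicle, 264, 216 and 283 CPM with rhWnt3a, and 272, 246 and 289 CPM with rhWnt3a + OSMI. All groups overlapped, and no log2 fold change was larger in size than the −0.24 for rhWnt3a against vehicle. The intervals of the log2 fold change were −0.61 to 0.14 for rhWnt3a against vehicle, −0.30 to 0.46 for rhWnt3a + OSMI against rhWnt3a and −0.53 to 0.22 against vehicle. At most 8.97% of any single Smo transcript is at least 97% identical to Gm4066, which had at most 3 reads in any library.

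Gas1 (ENSMUSG00000052957, chr13:60174405-60177365 on the minus strand), a membrane-anchored coreceptor, fell from 1451, 1625 and 1127 CPM in vehicle to 356, 506 and 393 CPM with rhWnt3a. It remained at 252, 332 and 527 CPM with rhWnt3a + OSMI. The libraries with rhWnt3a, with or without OSMI, lay below all vehicle libraries. Its log2 fold change was −1.74 ± 0.278 for rhWnt3a against vehicle (adjusted p = 0.00332). For rhWnt3a + OSMI against vehicle it was −1.92 ± 0.279 (adjusted p = 0.00160). Both calls were kept in all 18 alternatives, of which unadjusted p could not lose a call. Between rhWnt3a + OSMI and rhWnt3a the interval was −0.78 to 0.43, and the sides of the axis gave opposite signs, 0.49 and −0.81. The exons of Gas1 share 19.9% of their bases with the antisense gene Gm48488, which had at most 21 reads in any library where Gas1 had at least 4174.

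Boc (ENSMUSG00000022687, chr16:44485049-44558897 on the minus strand), a coreceptor of the immunoglobulin superfamily, fell from 170, 177 and 110 CPM in vehicle to 56.9, 38.7 and 57.0 CPM with rhWnt3a. It stood at 60.8, 63.0 and 101 CPM with rhWnt3a + OSMI, between the other groups and without overlap with either. For rhWnt3a against vehicle the log2 fold change was −1.58 ± 0.261 (adjusted p = 0.00404), a call kept in all 18 alternatives. For rhWnt3a + OSMI it was 0.56 (interval −0.01 to 1.13) against rhWnt3a (adjusted p = 0.231) and −1.03 ± 0.258 against vehicle (adjusted p = 0.0251). The last call was kept in 13 of 18 alternatives. It was lost with the replicate block (adjusted p = 0.0623), without vehicle replicate 1 (0.0974) or replicate 2 (0.0995), and without rhWnt3a + OSMI replicate 1 (0.108) or replicate 2 (0.106).

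Cdon (ENSMUSG00000038119, chr9:35421128-35507652 on the plus strand), the coreceptor most closely related to Boc, had 58.4, 55.0 and 34.4 CPM in vehicle, 91.9, 48.3 and 90.7 CPM with rhWnt3a, and 33.8, 29.8 and 51.8 CPM with rhWnt3a + OSMI. The groups overlapped in all 3 comparisons, through rhWnt3a replicate 2 on the one hand and rhWnt3a + OSMI replicate 3 on the other. Fitted log2 fold changes were 0.64 (interval −0.03 to 1.32) for rhWnt3a against vehicle (adjusted p = 0.280) and −1.0 (interval −1.68 to −0.32) for rhWnt3a + OSMI against rhWnt3a (adjusted p = 0.0950). Within the sides of the axis the log2 difference of Cdon between rhWnt3a and vehicle was 0.69 (2 libraries against 2) and 0.49 (1 against 1), and that between rhWnt3a + OSMI and rhWnt3a was −0.82 and −0.61 (1 library in an arm of each). Without the 3 libraries that stood apart, Cdon rose by 0.65 (adjusted p = 1.3e-06) and then fell by 1.53 on the log2 scale (adjusted p = 5.2e-11). In that fit, as for Ptch1, side and OSMI cannot be told apart. Its spread is also narrowed by the choice of the libraries left out, so neither adjusted p adds support.

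Hhip (ENSMUSG00000064325, chr8:79965851-80058006 on the minus strand), the decoy for the ligand and a target gene, had 1 read in rhWnt3a + OSMI replicate 1 and 0 in the other 8 libraries. It was not detectable at this depth.

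Gli1 (ENSMUSG00000025407, chr10:127329882-127341974 on the minus strand), the activator that is itself a target, had the lowest level of the tested members. Its counts were 48, 30 and 31 reads in vehicle, 9, 5 and 13 reads with rhWnt3a, and 8, 11 and 9 reads with rhWnt3a + OSMI. As CPM these are 2.93, 1.91 and 1.75 in vehicle, 0.548, 0.284 and 0.778 with rhWnt3a, and 0.484, 0.631 and 0.525 with rhWnt3a + OSMI. Every library that received rhWnt3a lay below every vehicle library. In the fit Gli1 had a log2 fold change of −2.03 ± 0.395 for rhWnt3a against vehicle (adjusted p = 0.00990) and −1.99 ± 0.393 for rhWnt3a + OSMI against vehicle (adjusted p = 0.00801). Since Gli1 passed the filter only through vehicle, these are given as values, and with at least 10 counts required in every library it was not tested. The interval between rhWnt3a + OSMI and rhWnt3a was wide, −0.95 to 1.02. On the opposite strand, Gm47200 shares 5.31% of the exon bases of Gli1 and had 0 reads, and Arhgap9 shares 1.24% and had at most 5.

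Gli2 (ENSMUSG00000048402, chr1:118834132-119053619 on the minus strand) had 10.6, 12.3 and 6.11 CPM in vehicle, 8.15, 4.49 and 9.39 CPM with rhWnt3a, and 3.27, 3.27 and 6.18 CPM with rhWnt3a + OSMI. The means were lower in that order, but the groups overlapped through vehicle replicate 3, rhWnt3a replicate 2 and rhWnt3a + OSMI replicate 3. For rhWnt3a + OSMI against vehicle the log2 fold change was −1.18 (interval −2.01 to −0.35, adjusted p = 0.0591). Gli2 was called in this comparison in 8 of 18 alternatives. With all libraries kept, these were DESeq2, no filter on low counts, unadjusted p and the side of the axis as a covariate. It was also called without vehicle replicate 3 (adjusted p = 0.0315), rhWnt3a replicate 2 (0.0412) or rhWnt3a + OSMI replicate 3 (0.0263), and without these 3 together. Each library left out here stood apart, so leaving it out narrows the spread within groups. The interval was −1.20 to 0.41 for rhWnt3a against vehicle and −1.62 to 0.04 for rhWnt3a + OSMI against rhWnt3a.

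Gli3 (ENSMUSG00000021318, chr13:15463235-15730026 on the plus strand) had 28.1, 27.5 and 17.6 CPM in vehicle, 40.5, 21.3 and 40.4 CPM with rhWnt3a, and 36.4, 35.0 and 59.4 CPM with rhWnt3a + OSMI. All rhWnt3a + OSMI libraries lay above all vehicle libraries, and the rhWnt3a libraries overlapped both. The log2 fold change of rhWnt3a + OSMI against vehicle was 0.84 (interval 0.16 to 1.51, adjusted p = 0.0949). Gli3 was called in this comparison in 4 of 18 alternatives. These were no filter on low counts, unadjusted p, the side of the axis as a covariate, and leaving out rhWnt3a replicate 2 (adjusted p = 0.0436), a library that stood apart. Within the sides of the axis the difference of Gli3 between rhWnt3a + OSMI and vehicle was 1.09 and 1.01. The exons of Gli3 share 1.96% of their bases with Gm6556, which had at most 16 reads.

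**Figure D3:**
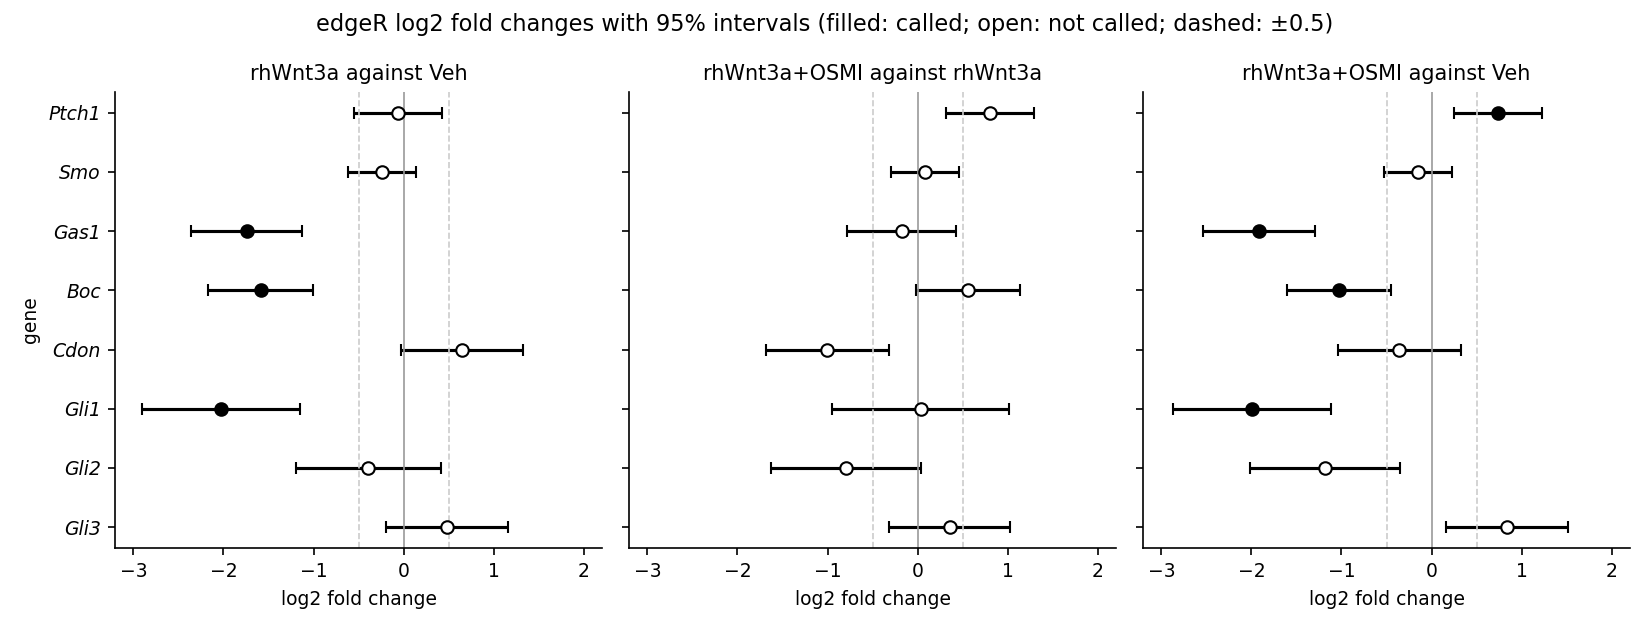
edgeR log2 fold changes (points) with 95% intervals (bars) of the 8 tested members in the 3 comparisons; filled points passed the threshold and dashed lines mark a log2 fold change of 0.5 in either direction. Gas1 (−1.74), Boc (−1.58) and Gli1 (−2.03) are filled for rhWnt3a against vehicle, none is filled for rhWnt3a + OSMI against rhWnt3a, and Ptch1 (0.74) is filled on the positive side against vehicle.

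Ratios of 2 genes within a library do not depend on how libraries are scaled, and 5 were computed from FPKM after the values of the single genes had been seen, so they are given without a test. The ratio of the coreceptor Cdon to Boc was 0.198, 0.179 and 0.180 in vehicle, 0.932, 0.721 and 0.918 with rhWnt3a, and 0.321, 0.273 and 0.296 with rhWnt3a + OSMI. No library overlapped with those of another group. The ratio was 4.59-fold higher with rhWnt3a than with vehicle (geometric means) and 1.59-fold higher with rhWnt3a + OSMI than with vehicle. In this ratio vehicle replicate 3 and rhWnt3a + OSMI replicate 3 lay within the range of the other libraries of their groups, and rhWnt3a replicate 2 was the lowest of its group.

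The ratio of Gli3 to Gli2 was higher at each step. It was 1.90, 1.60 and 2.07 in vehicle, 3.55, 3.39 and 3.08 with rhWnt3a, and 7.99, 7.65 and 6.89 with rhWnt3a + OSMI. The groups were fully separate, with the ratio 1.81-fold higher with rhWnt3a than with vehicle and 2.25-fold higher again with OSMI, 4.05-fold in all. Leaving out any single library, or the 3 that stood apart together, moved the Cdon to Boc and the Gli3 to Gli2 ratios by less than their spread between replicates.

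Relative to Smo, Ptch1 stood at 0.0285, 0.0288 and 0.0268 in vehicle, 0.0351, 0.0264 and 0.0327 with rhWnt3a, and 0.0532, 0.0518 and 0.0517 with rhWnt3a + OSMI. The first 2 groups overlapped, and the third lay above both, 1.68-fold over rhWnt3a and 1.86-fold over vehicle. The ratio of Ptch1 to Gli1, whose counts with rhWnt3a were as low as 5, averaged 3.52 ± 0.900 (SD, n = 3) in vehicle, 14.5 ± 3.66 with rhWnt3a and 23.3 ± 4.68 with rhWnt3a + OSMI. The ratio of Gas1 to Boc averaged 14.0 ± 1.30 in vehicle and 13.1 ± 5.68 with rhWnt3a, which overlapped, and 7.33 ± 0.946 with rhWnt3a + OSMI, below both.

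**Figure D4:**
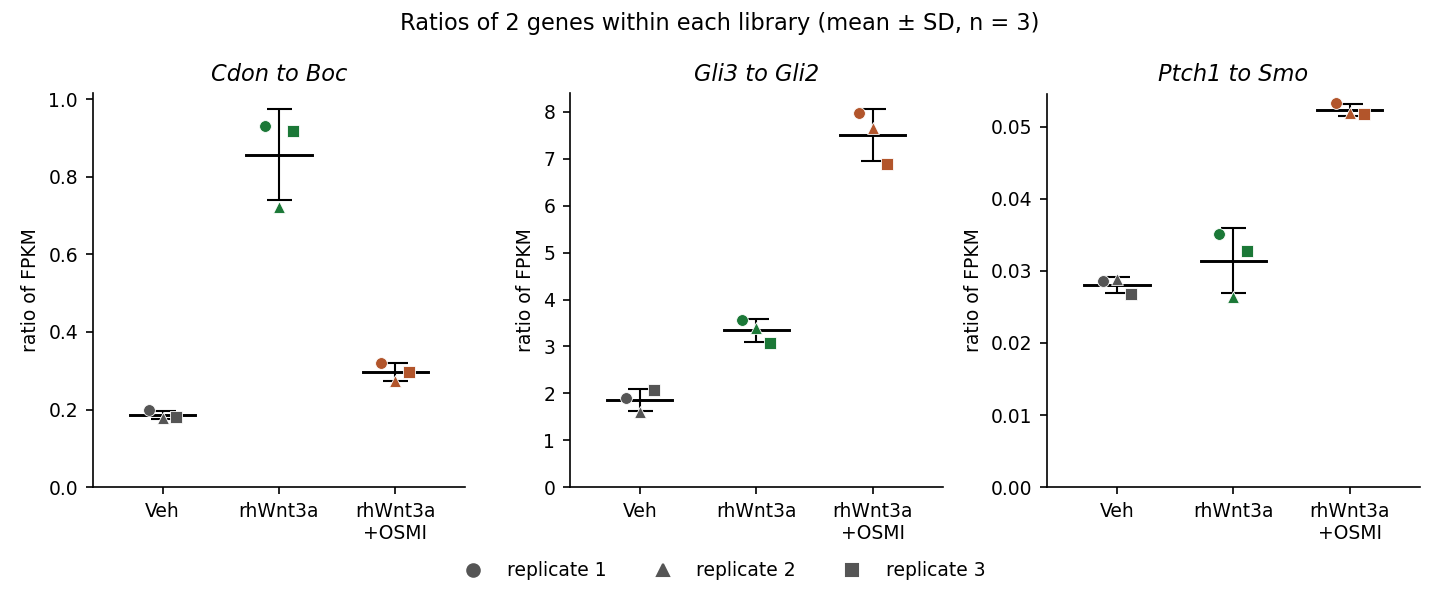
Ratios of FPKM of Cdon to Boc, Gli3 to Gli2 and Ptch1 to Smo in each library (points, shape for the replicate number) with the mean and SD of the 3 libraries per group; axes start at 0. For Gli3 to Gli2 the highest vehicle library is at 2.07, the rhWnt3a libraries span 3.08 to 3.55, and the lowest library with OSMI is at 6.89.

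Of 8 genes for the ligands and their release, 3 were tested. Shh had 0 reads in every library, Dhh at most 1 and Ihh at most 8. Hhat, which attaches palmitate to the ligands, fell with OSMI relative to rhWnt3a (log2 fold change −0.78, adjusted p = 0.0494), the only one of the list called in any comparison, 1 of 3 tested beside 4.74% of all tested genes. This adjusted p lies at the threshold, and Hhat was not recomputed under the alternatives. Its mean went from 12.5 ± 1.42 CPM to 7.29 ± 1.48 CPM.

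Of 19 other receptor-level and intracellular regulators, 17 were tested, and only the β-arrestin gene Arrb1 was called, for rhWnt3a and for rhWnt3a + OSMI against vehicle. It is 5.88% of the tested list, beside 8.78% and 14.2% of all tested genes called there. It rose with rhWnt3a by 1.84 (adjusted p = 0.00916), from 17.3 ± 6.31 to 61.6 ± 16.4 CPM, and was 1.18 above vehicle with rhWnt3a + OSMI (adjusted p = 0.0475). Gpc3, a glypican, was not tested, with at most 4 reads in any library. The negative regulator Sufu, the kinesin Kif7 and the kinases of the list were tested and not called in any comparison. The median log2 fold change of the list was 0.02, 0.10 and 0.11 in the 3 comparisons, beside 0.04, −0.01 and −0.01 over all tested genes.

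Of 12 other genes described as targets of the pathway, 8 were tested. For rhWnt3a against vehicle 2 of the 8 (25%) were called, beside 8.78% of all tested genes, and for rhWnt3a + OSMI against vehicle 1 (12.5%), beside 14.2%. Bcl2, an inhibitor of apoptosis, rose with rhWnt3a by 1.07 (adjusted p = 0.00309) and stood 1.41 above vehicle with rhWnt3a + OSMI (adjusted p = 0.000583). Sfrp1, a secreted Wnt antagonist, fell with rhWnt3a (log2 fold change −2.36, adjusted p = 0.0378) on low counts, 12 to 26 reads in vehicle and 1 to 7 with rhWnt3a. Like Gli1, Sfrp1 passed the filter on low counts only through its vehicle libraries, the group where it was high. Its values are given without weight, and its place in the count of called targets supports nothing. Mycn had at most 1 read and Pthlh 0. The cyclins Ccnd1 and Ccnd2 were tested and not called, though both were higher in every rhWnt3a + OSMI library than in any other. Against vehicle the log2 fold change was 0.42 for Ccnd1 (adjusted p = 0.121) and 0.81 for Ccnd2 (adjusted p = 0.0519). Of the 8 tested targets, 4 were higher and 4 lower in that comparison.

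All 16 genes of the primary cilium, where Smo acts, were tested. None was called for rhWnt3a against vehicle or for rhWnt3a + OSMI against rhWnt3a. Positive log2 fold changes were seen in 6 of the 16 for rhWnt3a against vehicle (median −0.06), beside 7650 of 14004 tested genes (median 0.04). For rhWnt3a + OSMI against rhWnt3a they were seen in 14 (median 0.28), beside 6794 of 14004 (median −0.01), and against vehicle in 11 (median 0.21), beside 6915 (median −0.01). Against vehicle 3 rose with rhWnt3a + OSMI: the transport gene Ift172 by 0.64 (adjusted p = 0.0430), the kinesin subunit Kif3a by 0.74 (adjusted p = 0.00144) and the transition zone gene Rpgrip1l by 1.17 (adjusted p = 0.00836). The 3 are 18.8% of the list, beside 14.2% of all tested genes called in this comparison, 4.84% up.

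**Figure D5:**
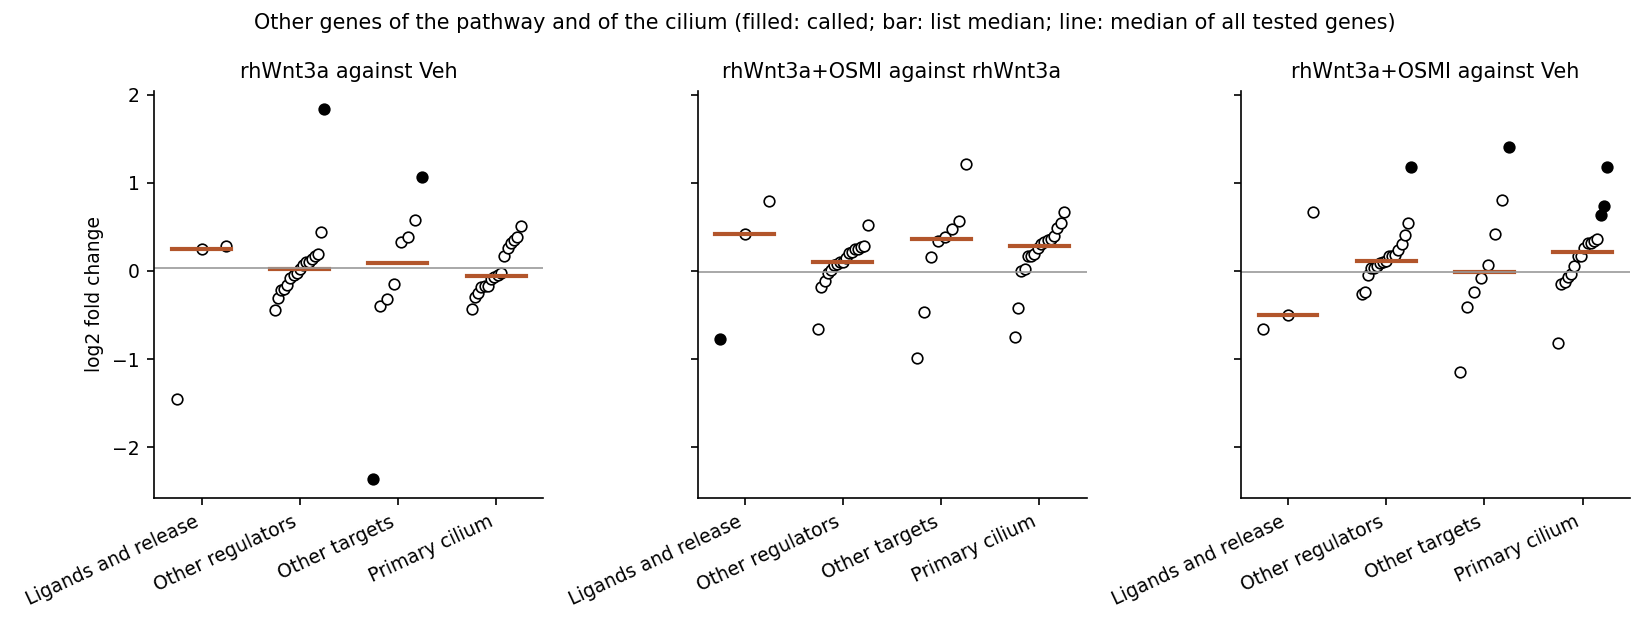
edgeR log2 fold changes of the tested genes of 4 lists in the 3 comparisons; each point is 1 gene, filled where it passed the threshold, the colored bar is the median of the list and the grey line the median of all tested genes. For rhWnt3a + OSMI against rhWnt3a the cilium genes have a median of 0.28, with none of the 16 filled.

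The genes whose course over the 9 libraries was most like that of a member were sought for Gli1 and Ptch1, by the root-mean-square difference of log2 CPM centred on each gene's mean, among tested genes with an average log2 CPM above 1. For Gli1, whose own SD was 0.977, they were Pgm5 (0.248), Carns1 (0.276) and Chst1 (0.287). All 3 fell with rhWnt3a, with log2 fold changes of −2.21 for Pgm5, −2.29 for Carns1 and −1.81 for Chst1. For Ptch1, with an SD of 0.477, they were Nrp1 (0.0684), Map3k3 (0.0732) and Ptprm (0.0891). Their log2 fold changes were 0.68, 0.67 and 0.83 for rhWnt3a + OSMI against rhWnt3a, where none of the 3 was called, and −0.01, 0.02 and −0.17 for rhWnt3a against vehicle. Since the matches were picked by their course over these same 9 libraries, that they changed as Gli1 or Ptch1 did follows from the choice.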

How the data were processed

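Messenger RNA of 9 ST2 libraries was measured by poly-T selected RNA-seq made at Novogene. Per the submitters' processing notes, reads were handled with CASAVA and fastp, aligned to mm10 with HISAT2 2.0.5 and counted with featureCounts 1.5.0-p3; the strand setting is not given in the sources used here, so reads of antisense genes cannot be told apart. The authors deposited whole-number counts per gene, without normalization. The FPKM values deposited by the authors divide these counts by gene length and a library total, and were used only to compare levels between genes and for ratios within a library. The 15 columns with the authors' own comparisons (fold changes and p-values, from DESeq2) were not used. Gene coordinates of all 9 members equal those of GENCODE M21 (GRCm38).

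Counts were fitted in R 4.3.3 with edgeR 4.0.16: filterByExpr (minimum count 10, minimum total 15), TMM, glmQLFit on all 9 libraries and 3 groups without covariates, two-sided glmQLFTest, and Benjamini-Hochberg adjustment over 14004 genes. The fold threshold is that of the study's methods. Replicates varied more than counting alone allows (common dispersion 0.0452). Standard errors and 95% intervals came from the same fit. Fold changes and calls of the procedure were also tried on simulated counts with a common dispersion and without the within-group axis. The standard errors and intervals were not checked there. Alternatives included DESeq2 1.42.0, other filters and thresholds, a replicate block, leaving out libraries, and the side of the within-group axis as a covariate. The side, and the 3 libraries that stood apart and were left out together, rest on these same data. Unadjusted p could add calls but not remove any, so its place among the alternatives that kept a call carries no weight. Near-identical transcripts were searched with BLAST 2.17.0. The members, gene lists and tests were chosen with earlier results of these data known. Named genes are all members, every called gene of the lists, the absent ligands, and the 3 genes closest to Gli1 and to Ptch1; other untested or uncalled genes were named after their values had been seen.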

Additional observations from a re-analysis of the deposited data

How the results depend on the processing

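Of 24 pairs of member and comparison, 7 were called and 5 stayed called in every alternative that tested them: Boc, Gas1 and Gli1 for rhWnt3a against vehicle, and Gas1 and Gli1 for rhWnt3a + OSMI against vehicle. Among these alternatives, unadjusted p could not lose a call. The calls of Gli1 carry no weight here, since it passed the filter only through vehicle and was not tested with at least 10 counts in every library. For rhWnt3a against vehicle, 3 members were called and leaving out single libraries gave 3 to 3, Gli1 being counted each time. Without the 3 libraries that stood apart 5 were called (2557 of all genes against 1230, with Cdon and Gli3 added). Those 3 were picked for their distance in these same data, so leaving them out narrows the spread within groups and the added calls are no support. For rhWnt3a + OSMI against rhWnt3a, 0 members were called. DESeq2 gave 2 (1232 of all genes against 664), no filter on low counts 2 (1481), unadjusted p 2 (2271), the 3 libraries left out 3 (1789) and the side of the axis as a covariate 4 (4033), and leaving out single libraries gave 0 to 1, the 1 being Ptch1 without vehicle replicate 3. For rhWnt3a + OSMI against vehicle, 4 members were called. At least 10 counts in every library left 2, since Gli1 was then not tested and Ptch1 had an adjusted p of 0.0533, the replicate block left 2, and leaving out single libraries gave 2 to 6. The cause of the other changes was not tested. The counts of all genes, here and below, come from unlike numbers of tested genes. For rhWnt3a against vehicle these were 14004 in the main fit, 17423 by DESeq2 and 27560 with no filter on low counts.

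The deviations of same-numbered libraries had correlations from −0.49 to 0.44. Whether the replicate numbers pair the libraries cannot be decided from these. The axis holds 54.8% of the variance within groups and could hide a weaker pairing. With the replicate block 3, 0 and 2 members were called in the 3 comparisons, and 809, 233 and 1297 of all genes against 1230, 664 and 1986. With the side as a covariate 2033, 4033 and 4670 of all genes were called, and at unadjusted p 2155, 2271 and 3186. A log2 fold change beyond 1 left 796, 380 and 1118. Only the 6 libraries compared gave 345 for rhWnt3a + OSMI against rhWnt3a, 3351 were called against vehicle without the 3 libraries, and leaving out single libraries gave 716 to 1506, 203 to 764 and 1218 to 2328.

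The sign turned in 11 of the alternatives, all for differences that were not called. For Ptch1 with rhWnt3a against vehicle, leaving out a library gave −0.23 to 0.14. For rhWnt3a + OSMI against rhWnt3a, leaving out a library gave −0.0019 to 0.18 for Smo, −0.52 to 0.075 for Gas1 and −0.25 to 0.40 for Gli1, and without the 3 libraries Smo was at −0.083, Gli1 at −0.25 and Gli3 at −0.19. Depth limits Gli1, with 5 to 13 reads after rhWnt3a, and Hhip and the ligands, which were at or near 0.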
